A study of Mus musculus with 43 samples.

Results

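The 10 genes described here load and start the replicative helicase of DNA: Mcm2, Mcm3, Mcm4, Mcm5, Mcm6, Mcm7, Mcm10, Cdc6, Cdt1 and Cdc45. They were matched by their GENCODE vM21 symbols and identifiers to the gene tables of mouse testes, and all 10 of them were found among the 55401 genes listed there. The RNA came from 10 libraries at postnatal day 7 (P7). Of these, 6 were bulk RNA-seq libraries of whole testes (3 WT and 3 Prmt1-dKO) and 4 were Smart-seq2 libraries of sorted GFP-positive spermatogonia (2 WT and 2 Prmt1-dKO). Prmt1-dKO mice carried floxed exons 4 and 5 of Prmt1 on both alleles and a CreERT2 knocked into Ddx4, a germ cell gene, on the C57BL/6J background, and the labels describe tamoxifen on 3 days for the RNA samples of both genotypes and for Prmt1-dKO in CUT&Tag. The WT of CUT&Tag were C57BL/6J mice, for which it is unclear whether they received it. Prmt1 encodes the main enzyme of asymmetric arginine dimethylation. The labels name the control mice WT, whereas the sorting methods describe controls with 1 floxed Prmt1 allele and the same Ddx4-GFP-CreERT2. The bulk labels give spermatogonia as the cell type, but their protocol describes RNA of the testis. Promoter peaks were read from 33 CUT&Tag lists of 7 histone marks at P7 and P14, 31 of them from WT mice and 2 (H4R3me2s at P7) from Prmt1-dKO mice. CUT&Tag was done on cells of digested tubules and not on sorted cells, and the P14 lists are labelled as spermatocytes in one field and as spermatogonia in another.

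Licensing takes place in G1, when the origin recognition complex recruits Cdc6 and Cdt1, which load the ring of Mcm2 to Mcm7 onto DNA. At the start of S phase, Cdc45 and the GINS complex join the ring to form the active helicase, and Mcm10 helps to open it. E2F transcription factors are known to drive many of these genes as cells enter the cycle, and at P7 the germ cells of the testis are dividing spermatogonia.

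Promoter windows of RefSeq (build GRCm38.p6) from 250 bases before to 50 bases after a transcript start were at hand for 9 of the 10 genes, with Mcm4 as the exception. They are shown because E2F-type motifs are a feature of this gene group that the choice of genes did not use. Searched on both strands, 4 spellings of the E2F motif (TTTCGCGC, TTTGGCGC, TTTCCCGC and TTTGCCGC) were found in the windows of 6 of these 9 genes, namely Mcm3, Mcm5, Mcm6, Mcm7, Cdc6 and Cdt1. The same spellings were found in 2.26% of 32851 promoter windows, and in 3.95% of the 14448 windows of genes with an H3K4me3 promoter peak in both P7 lists. The capitals below mark these motifs, read 5′ to 3′ on the strand of the gene, where a motif on the other strand appears reversed and a run of more than 8 capitals holds overlapping motifs. Mcm6 (chr1:128359706-128359955, minus strand) and Mcm5 (chr8:75109259-75109508, plus strand) are given for the 250 bases before their starts, and the other genes for 30 bases around a site.
Mcm6: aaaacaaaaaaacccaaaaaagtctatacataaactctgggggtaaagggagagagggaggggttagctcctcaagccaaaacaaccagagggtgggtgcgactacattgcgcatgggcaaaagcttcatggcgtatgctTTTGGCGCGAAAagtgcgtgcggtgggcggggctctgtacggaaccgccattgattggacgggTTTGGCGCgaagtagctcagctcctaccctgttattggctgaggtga
Mcm5: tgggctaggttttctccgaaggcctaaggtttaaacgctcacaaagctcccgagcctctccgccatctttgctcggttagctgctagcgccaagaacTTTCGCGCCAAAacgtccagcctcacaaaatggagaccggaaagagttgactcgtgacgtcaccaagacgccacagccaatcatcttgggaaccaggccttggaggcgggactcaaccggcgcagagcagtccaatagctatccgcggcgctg
Cdc6: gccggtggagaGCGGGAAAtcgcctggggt
Mcm3: GCGGGAAAacttgggaagtTTTGGCGCcaa
Cdt1: aatccgcgggaactaccttTTTGGCGCcat
Mcm7: ggtcacatgggtgacgacgTTTCGCGCcaa

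The site of Cdc6 lies at chr11:98908002-98908031 (plus strand), before its RefSeq start and after another annotated start of the gene. The sites of Mcm3 (chr1:20820264-20820293, minus strand), Cdt1 (chr8:122568028-122568057, plus strand) and Mcm7 (chr5:138171857-138171886, minus strand) lie at or just after a start. Mcm6 held 3 motifs, Mcm3, Mcm5 and Mcm7 held 2 each, and Cdc6 and Cdt1 held 1 each. CCAAT, a motif of many promoters, was found in 7 of the 9 genes (all but Cdc6 and Cdt1) and in 37.4% of all windows. Mcm2, Mcm10 and Cdc45 held none of the 4 spellings in these windows. A match describes the letters of the window and not the binding of a factor.

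The levels of the genes were compared per transcript length, in TPM of the WT libraries. In whole testes, the subunits of the ring led the order. Mcm7 had 175 ± 8.98 TPM (SD, n = 3), Mcm3 had 170 ± 5.27 TPM and Mcm6 had 155 ± 11.9 TPM, and the ranges of neighbours among these 3 genes overlapped. Mcm2 (129 ± 12.3 TPM) and Mcm5 (119 ± 4.74 TPM) followed and overlapped each other. Cdt1 (75.4 ± 2.6 TPM) and Mcm4 (74.8 ± 6.78 TPM) overlapped as well, so Mcm4 had the lowest level of the 6 ring subunits. Cdc45 (40.9 ± 0.3 TPM), Mcm10 (26.6 ± 0.886 TPM) and Cdc6 (20.4 ± 0.83 TPM) came last, each below the range of the gene above it.

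In WT sorted spermatogonia, Mcm5 had the highest mean, 208 and 221 TPM in its 2 libraries, and Mcm6, Mcm3, Mcm2, Mcm7 and Cdc45 followed with means from 194 to 133 TPM. Each of these overlapped the gene above it in the order. Cdc45 stood at 119 and 146 TPM there, within the range of the ring subunits, whereas in testes it lay under all of them. Mcm4 was again the lowest ring subunit, with 58.3 and 67.9 TPM. Cdt1, Cdc6 and Mcm10 were lowest, with means of 44.9, 44.5 and 35.6 TPM, and overlapped in that order. The assay and the source of cells cannot be told apart in such a comparison between testes and sorted cells.

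**Figure D1:**
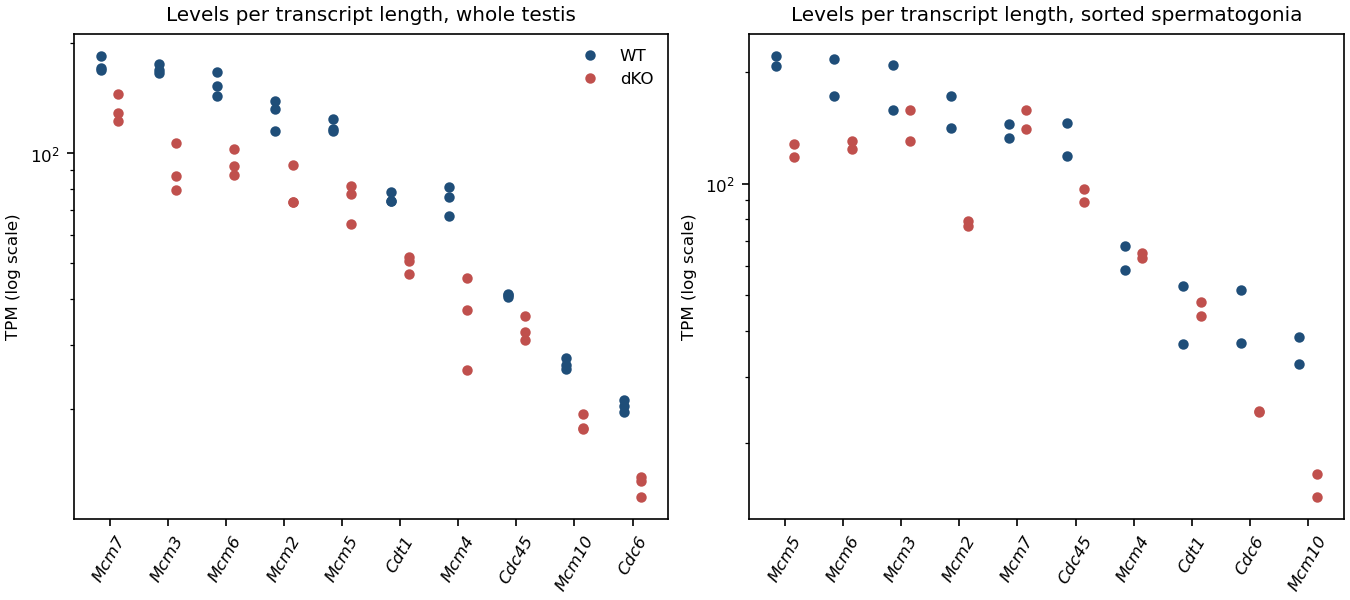
Levels per transcript length (TPM, log scale) of the 10 genes in each library of whole testes (left) and sorted spermatogonia (right), ordered by the WT mean; each point is a library. In testes the Prmt1-dKO points lie under the WT points for all 10 genes, and in sorted cells for 7 of them. The share of all genes with such an order in TPM was not computed.

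Expected counts were scaled by TMM to CPM (counts relative to a common library total) and tested by genotype with edgeR, with p-values adjusted over all genes (FDR). The libraries held 12396345 to 16598249 counts in testes and 15610392 to 18547103 counts in sorted cells, and all 10 genes passed the filter on low counts in both assays. More genes had a count in Prmt1-dKO than in WT libraries, 24062 to 24502 as against 22358 to 22565 in testes and 20206 to 21416 as against 15595 to 17114 in sorted cells, and the part of this in the results was not tested. Over all genes the median log2 fold change was 0.02 in testes and 0.15 in sorted cells. Prmt1 itself, the check of the genotype, had 237, 219 and 247 CPM in WT testes as against 146, 199 and 158 CPM in Prmt1-dKO testes, a log2 fold change of -0.49 (SE 0.13, FDR = 0.0334). In sorted cells, Prmt1 had 216 and 149 CPM in WT as against 112 and 86.5 CPM in Prmt1-dKO libraries (log2 fold change -0.88, SE 0.26, FDR = 0.133). Both assays thus had the Prmt1-dKO libraries below the WT libraries, although counts over the whole gene see only in part the loss of 2 exons. The study's methods call its replicates biological, but the labels tie no library to a mouse, and p-values measure the spread between these libraries.

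In whole testes, 8 of the 10 licensing genes were lower in Prmt1-dKO than in WT at an FDR below 0.05, and none was higher. Of all 16554 genes tested, 8.51% were lower and 10.6% were higher at that FDR. The fall was less than 2-fold for each of them, so that 0 of 10 were called at that FDR together with a change of 2-fold or more, where 1.78% of all genes were called lower and 5.32% higher. At an unadjusted p below 0.05, 9 of the 10 were lower, as were 15.7% of all genes, and DESeq2 and limma-voom, like edgeR, called 0 at 2-fold. The log2 fold changes of the 10 genes ranged from -0.89 to -0.16, with a median of -0.52 beside 0.02 for all genes. For 9 of 10 genes every Prmt1-dKO library lay below every WT library, as for 19.9% of all genes, while 20.9% of all genes had every Prmt1-dKO library above. Without WT replicate 1 the call was lost for Mcm2, Mcm5, Mcm6 and Cdt1, which left 4 lower, without WT replicate 2 for Mcm2, Mcm5 and Cdt1 (5 lower), and without WT replicate 3 for Mcm5 and Cdt1 (6 lower). In these fits 489 of 17447, 580 of 17239 and 689 of 17272 genes were lower in all. These are bulk samples, in which fewer cells of a type and less RNA per cell cannot be told apart.

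Among the ring subunits, Mcm4 (ENSMUSG00000022673.5, chr16:15623897-15637400, minus strand) had the most negative value. It had 170, 158 and 148 CPM in WT testes as against 100, 68.1 and 88.4 CPM in Prmt1-dKO testes. All Prmt1-dKO libraries were well below the WT libraries, and replicate 2 was the lowest of them. This gave a log2 fold change of -0.89 (SE 0.15, FDR = 0.00453), or 53.9% of the WT level. Without Prmt1-dKO replicate 1 the value was -1.04, the single case in which a licensing gene was called at 2-fold, and without Prmt1-dKO replicate 2 it was -0.75, smaller in size than the -0.89 of Mcm3 in that fit.

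Mcm3 (ENSMUSG00000041859.10, chr1:20802968-20820312, minus strand) followed, with 217, 215 and 206 CPM in WT as against 126, 131 and 104 CPM in Prmt1-dKO testes. Its log2 fold change was -0.82 (SE 0.11, FDR = 0.0026), so its level was 56.6% of WT. The gap between the groups exceeded the spread within either of them.

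Mcm2, Mcm5 and Mcm6 fell alike, each to about 70% of WT. Mcm2 (ENSMUSG00000002870.8, chr6:88883474-88898780, minus strand) had 270, 256 and 239 CPM in WT as against 189, 184 and 162 CPM in Prmt1-dKO testes (log2 fold change -0.52, SE 0.11, FDR = 0.0117). Mcm5 (ENSMUSG00000005410.6, chr8:75109569-75128439, plus strand) had 189, 174 and 183 CPM in WT as against 126, 146 and 108 CPM in Prmt1-dKO testes (log2 fold change -0.52, SE 0.13, FDR = 0.0211). Mcm6 (ENSMUSG00000026355.11, chr1:128331590-128359664, minus strand) had 281, 264 and 256 CPM in WT as against 186, 194 and 179 CPM in Prmt1-dKO testes (log2 fold change -0.52, SE 0.1, FDR = 0.0074). In none of the 3 genes did the groups overlap.

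Mcm7 (ENSMUSG00000029730.16, chr5:138164583-138172422, minus strand) was the subunit with the smallest difference. It had 252, 242 and 251 CPM in WT as against 198, 234 and 193 CPM in Prmt1-dKO testes. The groups did not overlap, but Prmt1-dKO replicate 2 came close to WT, and the log2 fold change of -0.25 (SE 0.11, FDR = 0.136) did not pass the test. Without that library it was -0.35 with FDR = 0.00511, so 1 library decided this call.

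Both loaders of the ring fell. Cdc6 (ENSMUSG00000017499.15, chr11:98907801-98923940, plus strand), the ATPase that brings the ring to the origin, had 33.9, 32.7 and 31 CPM in WT as against 20.1, 20.7 and 19.5 CPM in Prmt1-dKO testes (log2 fold change -0.70, SE 0.11, FDR = 0.00399). Cdt1 (ENSMUSG00000006585.3, chr8:122568015-122573554, plus strand), its partner and the target of the inhibitor geminin, had 90.9, 92.3 and 92 CPM in WT as against 65, 71.4 and 66.3 CPM in Prmt1-dKO testes (log2 fold change -0.44, SE 0.10, FDR = 0.0145). The libraries of each genotype lay close together for both genes.

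Of the factors that act after loading, Mcm10 fell and Cdc45 did not pass the test. Mcm10 (ENSMUSG00000026669.14, chr2:4989714-5012791, minus strand) had 40.6, 42 and 40.3 CPM in WT as against 29, 27.6 and 27.2 CPM in Prmt1-dKO testes (log2 fold change -0.55, SE 0.10, FDR = 0.00717). Cdc45 (ENSMUSG00000000028.15, chr16:18780447-18811987, minus strand) had 45.7, 45.6 and 46.9 CPM in WT as against 39.9, 45.6 and 37.9 CPM in Prmt1-dKO testes (log2 fold change -0.16, SE 0.11, FDR = 0.333). Prmt1-dKO replicate 2 reached the WT range for Cdc45 in CPM, while in TPM all 3 Prmt1-dKO libraries were below (30.9 to 35.9 against 40.6 to 41.2 TPM).

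The genes with an E2F-type motif in their windows and those without did not separate in testes. The 6 with a motif had log2 fold changes from -0.82 (Mcm3) to -0.25 (Mcm7), and the 3 without one had -0.55 (Mcm10), -0.52 (Mcm2) and -0.16 (Cdc45).

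**Figure D2:**
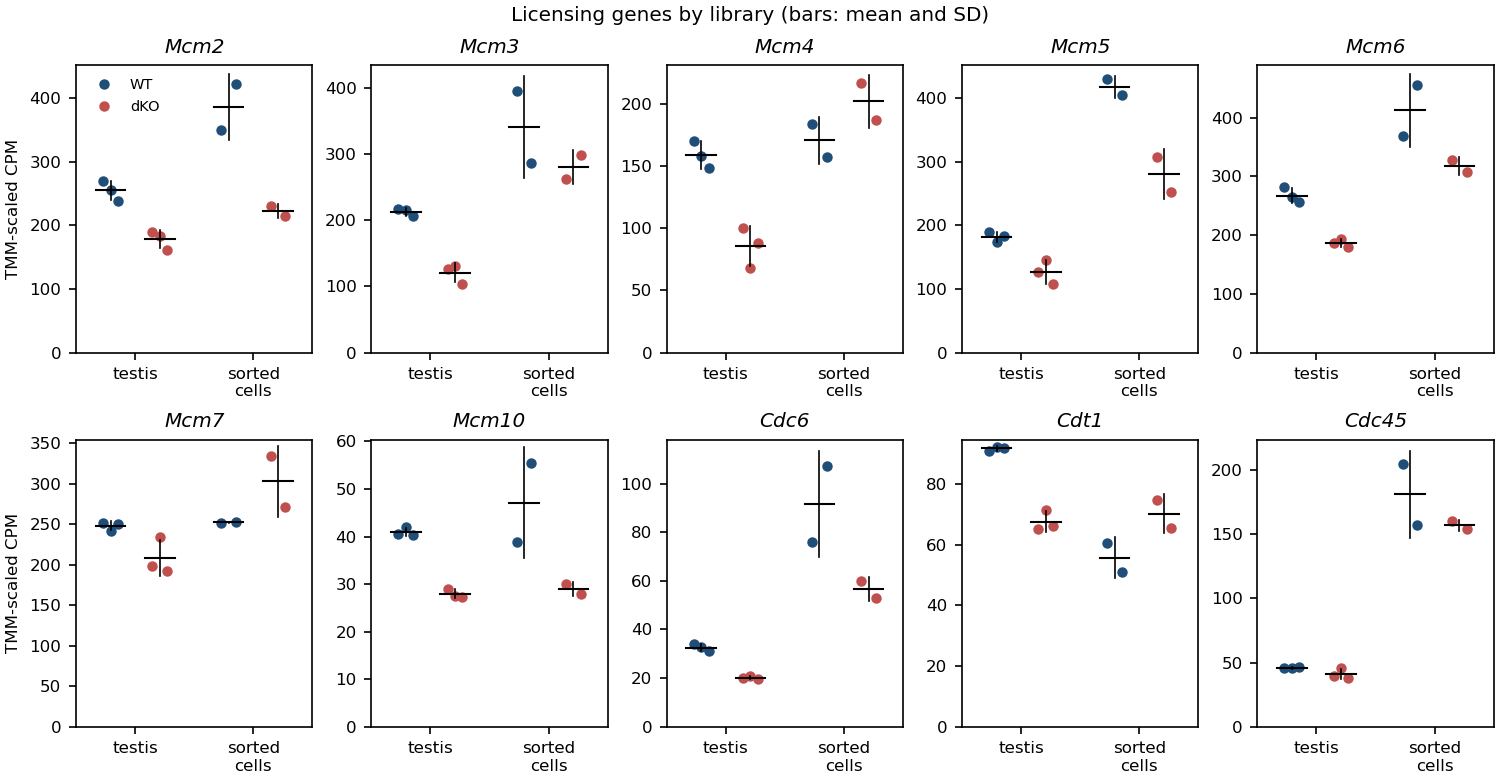
TMM-scaled CPM of the 10 genes in each library, for whole testes (left in each panel) and sorted cells (right), with WT in blue and Prmt1-dKO in red; horizontal bars are means and vertical bars SD. In testes the groups overlap only for Cdc45, and in sorted cells Mcm4, Mcm7 and Cdt1 lie higher in Prmt1-dKO.

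Markers of other cells moved in the same testes. The 14 Sertoli cell markers had negative log2 fold changes without exception (median -0.33, 5 lower at an FDR below 0.05), and their summed level was 6980 to 7910 CPM in WT as against 5610 to 6150 CPM in Prmt1-dKO testes. At that FDR 4 of 7 tested Leydig cell markers were lower and 1 (Lhcgr) was higher, and 5 of 7 peritubular myoid cell markers were lower. Of 10 macrophage markers 2 were higher and 1 lower, and of 7 endothelial cell markers 1 was higher and 1 lower. The 14 germ cell markers had a median of 0.05, with 1 lower and 1 higher. Among the germ cell markers Ddx4, the gene that carries the Cre, was the lower one (log2 fold change -0.67, SE 0.16, FDR = 0.0184). The part of these cells in the levels of the licensing genes was not tested.

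In sorted spermatogonia no gene passed an FDR of 0.05 with edgeR, so that the share called was 0% in either direction, with or without the 2-fold threshold, and 0 of the 10 licensing genes were called. The smallest FDR of any gene was 0.0774. At an unadjusted p below 0.05, 3 of the 10 licensing genes were lower (Mcm2, Mcm5 and Cdc6), as were 7.35% of all 16443 genes tested. DESeq2 on the same counts had 4 of the 10 lower at an FDR below 0.05 (Mcm2, Mcm5, Mcm6 and Cdc6) and limma-voom 0. Of all 16443 genes, DESeq2 had 1758 lower and 3089 higher, and limma-voom had 175 lower and 1578 higher. Leaving out WT replicate 1 gave 5 lower with edgeR (Mcm2, Mcm5, Mcm6, Mcm10 and Cdc6) and leaving out WT replicate 2 gave 3 (Mcm2, Mcm3 and Mcm5), and of all genes these fits had 3064 lower and 6127 higher of 17942, and 2932 lower and 4907 higher of 18164. The biological coefficient of variation was 0.767 in sorted cells and 0.155 in testes. The 10 genes had a median log2 fold change of -0.33 beside 0.15 for all genes, with 7 negative and 3 positive values. In 5 genes both Prmt1-dKO libraries were below both WT libraries, as in 20.3% of all genes, and in 3 genes they were above, as in 36.3% of all genes.

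The 5 genes with lower Prmt1-dKO libraries were Mcm2, Mcm5, Mcm6, Mcm10 and Cdc6. Mcm2 had 350 and 423 CPM in WT as against 230 and 215 CPM in Prmt1-dKO cells (log2 fold change -0.80, SE 0.16, FDR = 0.0774). Mcm5 had 430 and 405 CPM in WT as against 308 and 253 CPM in Prmt1-dKO cells (log2 fold change -0.57, SE 0.16, FDR = 0.117). For both genes the gap between the genotypes was wider than the gap between libraries of one genotype.

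Mcm6 had 368 and 456 CPM in WT as against 328 and 307 CPM in Prmt1-dKO cells (log2 fold change -0.38, SE 0.17, FDR = 0.281). Mcm10 had 38.9 and 55.4 CPM in WT as against 30 and 27.9 CPM in Prmt1-dKO cells (log2 fold change -0.70, SE 0.35, FDR = 0.326). Cdc6 had 76.1 and 107 CPM in WT as against 60.1 and 53 CPM in Prmt1-dKO cells (log2 fold change -0.69, SE 0.26, FDR = 0.208). In these 3 genes the WT libraries lay apart from each other, with replicate 2 the higher. Without it the log2 fold change was -0.20 for Mcm6, -0.41 for Mcm10 and -0.41 for Cdc6.

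Mcm3 and Cdc45 overlapped between the genotypes in CPM. Mcm3 had 396 and 287 CPM in WT as against 262 and 298 CPM in Prmt1-dKO cells (log2 fold change -0.28, SE 0.21, FDR = 0.528), and Cdc45 had 205 and 157 CPM in WT as against 160 and 154 CPM in Prmt1-dKO cells (log2 fold change -0.20, SE 0.19, FDR = 0.633). Here WT replicate 1 was the higher WT library, and without it the value was -0.02 for Mcm3 and 0.02 for Cdc45.

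Mcm4, Mcm7 and Cdt1 had positive values. Mcm4 had 184 and 157 CPM in WT as against 217 and 187 CPM in Prmt1-dKO cells (log2 fold change 0.24, SE 0.17, FDR = 0.507). Mcm7 had 252 and 253 CPM in WT as against 334 and 272 CPM in Prmt1-dKO cells (log2 fold change 0.26, SE 0.17, FDR = 0.449). Cdt1 had 60.5 and 50.9 CPM in WT as against 74.7 and 65.6 CPM in Prmt1-dKO cells (log2 fold change 0.33, SE 0.24, FDR = 0.508). The genotypes did not overlap for these genes in TMM-scaled CPM, but in TPM they overlapped for all 3, and no gene of the 10 had both Prmt1-dKO libraries above WT. In TPM, 7 genes, Mcm3 and Cdc45 included, had both Prmt1-dKO libraries below WT, though Mcm3 came close (158 TPM in the lowest WT and in the highest Prmt1-dKO library after rounding). The share of all genes with such an order in TPM was not computed, and the shares given above are for TMM-scaled CPM.

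Other markers moved in the sorted cells as well. Of 14 germ cell markers, 13 had positive log2 fold changes (median 0.68), and their summed level was 2070 to 2100 CPM in WT as against 2850 to 3030 CPM in Prmt1-dKO libraries. All 9 macrophage markers tested had positive values, with a summed level of 0.628 to 5.74 CPM in WT as against 61.9 to 75.8 CPM in Prmt1-dKO libraries, and Csf1r, Cd68, C1qb and Lyz2 had 0 counts in both WT libraries. The 13 Sertoli cell markers tested summed to 718 to 772 CPM in WT as against 1120 to 1240 CPM in Prmt1-dKO libraries. The 3 endothelial cell markers tested summed to 67.4 to 74.4 CPM in WT as against 53 to 60.3 CPM in Prmt1-dKO libraries. For the 5 peritubular myoid cell markers tested the sums overlapped (9.62 to 32.9 against 14.9 to 24.8 CPM). The 3 Leydig cell markers tested summed to 20.7 to 24.5 against 26.1 to 27.5 CPM. Sorting for GFP should remove all of these cells except germ cells. Their part in the values of the licensing genes was not tested.

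**Figure D3:**
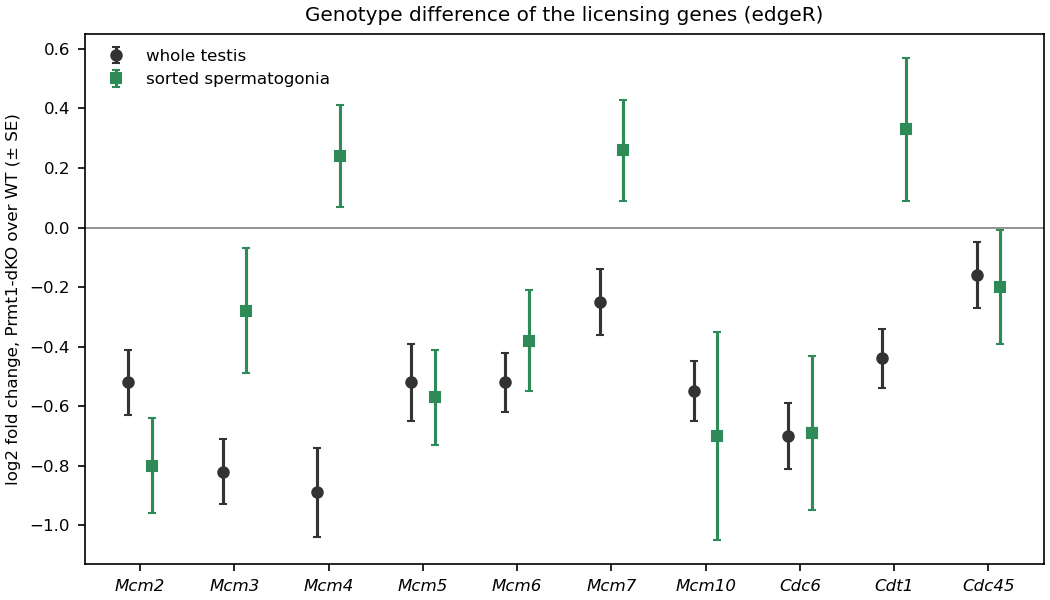
Log2 fold change of Prmt1-dKO over WT for each gene from edgeR, with bars of 1 SE, in whole testes (circles) and sorted spermatogonia (squares). All 10 values are negative in testes, and Mcm4, Mcm7 and Cdt1 are positive in sorted cells.

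Whether the genotype difference itself differed between the assays was tested with an assay by genotype term in a joint fit of all 10 libraries. The term passed an FDR of 0.05 for 3 licensing genes, and for 19% of the 19608 genes in that fit. Mcm4 differed by 1.22 on the log2 scale (SE 0.25, FDR = 0.0104), Cdt1 by 0.86 (SE 0.19, FDR = 0.014) and Mcm7 by 0.6 (SE 0.18, FDR = 0.0455), each being higher in sorted cells than in testes relative to its WT libraries. Mcm3 differed by 0.63 (SE 0.23, FDR = 0.0926) and did not pass. With limma-voom and sample quality weights 0 of the 10 and 202 of the 19608 genes passed, and the adjusted p for Mcm4 was 0.16 (between 0.00197 and 0.16 over all alternatives). Without any one of the WT testis libraries, or without Prmt1-dKO testis replicate 1, only Mcm4 of the 10 passed, in fits where 2590 of 19570, 2630 of 19528, 2651 of 19550 and 2818 of 19407 genes passed. Without WT replicate 1 of the sorted cells Mcm3 passed in addition to the 3 genes (0.9, FDR = 0.00527), in a fit where 8886 of 21394 genes passed. In TPM the sorted genotypes overlapped for Mcm4, Mcm7 and Cdt1, as given above.

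Each of 3 licensing genes shares its promoter region with a gene on the other strand, within 1000 bp. Mcm4 starts 466 bp from Prkdc, the catalytic subunit of DNA-dependent protein kinase. Mcm7 starts 160 bp from Ap4m1, a subunit of an adaptor complex, and Cdc45 starts 140 bp from Ufd1, a cofactor of the segregase p97. In testes the log2 fold change of Prkdc was -0.41 (SE 0.12, FDR = 0.0405), so it fell with Mcm4, while Ap4m1 rose (0.42, SE 0.11, FDR = 0.0268) and Ufd1 did not pass the test (0.11, SE 0.12, FDR = 0.556). In sorted cells the values were -0.18 for Prkdc, 0.54 for Ap4m1 and -0.02 for Ufd1, none of which passed. The libraries were not described as counted by strand, so reads where such genes overlap cannot be told apart.

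The other genes of replication were read from lists chosen by function. In testes, of the 13 genes of origin recognition and licensing control 3 were lower and 0 higher at an FDR below 0.05. Dtl, part of the ligase that destroys Cdt1 in S phase, had 64.7 CPM in WT as against 40.1 CPM in Prmt1-dKO testes (log2 fold change -0.69, FDR = 0.00646), and Skp2, another ligase subunit that targets Cdt1, had a log2 fold change of -0.63 (FDR = 0.0175). Among 12 genes of origin firing 3 were lower, of which Ticrr, which helps to recruit Cdc45 (-0.94, FDR = 0.00397), and Wdhd1 (-0.37, FDR = 0.0428) had the smallest p, and Gins1 of the GINS complex had -0.59 (FDR = 0.0467). Among 12 polymerase and primase genes 3 were lower, those with the smallest p being Pola1 (-0.97, FDR = 0.00411) and Pole2 (-0.96, FDR = 0.00497), subunits of polymerases alpha and epsilon. None of these 37 genes was called at 2-fold.

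Further along the fork, 6 of 14 genes of the clamp, ligation and chromatin assembly were lower in testes, among them Chaf1a, a histone chaperone subunit (-0.57, FDR = 0.0074), and Fen1, the flap endonuclease (-0.49, FDR = 0.0138). Of 8 genes of fork protection and checkpoint 3 were lower, those with the smallest p being Timeless (-0.65, FDR = 0.0041) and Clspn (-0.52, FDR = 0.0102), and 1 (Atrip) was higher. Of 8 genes of nucleotide supply 5 were lower, among them both subunits of ribonucleotide reductase, Rrm2 (-0.86, FDR = 0.00553) and Rrm1 (-0.48, FDR = 0.00812). The medians of these 3 lists were -0.30, -0.34 and -0.46, so the median of -0.52 of the licensing genes was the most negative of the replication lists. The shares of all genes lower or higher at that FDR, given above for the licensing genes, hold here too.

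Some regulators of entry into S phase were called at 2-fold. Of 22 genes for E2F factors, the RB family and the cyclins of G1 and S phase, 7 were lower in testes and 0 higher, and 4 of them were called at 2-fold. E2f8 had 20.2, 17.4 and 17.5 CPM in WT as against 6.57, 6.37 and 5.26 CPM in Prmt1-dKO testes (log2 fold change -1.60, FDR = 0.000949). E2f7, like E2f8 a repressor that is itself an E2F target, had a log2 fold change of -1.49 (FDR = 0.00134), and Ccnd2, cyclin D2, had -1.13 (FDR = 0.00239). Of 7 CDK inhibitors only Cdkn2c was called, with 53.8 CPM in WT as against 19.2 CPM in Prmt1-dKO testes (log2 fold change -1.49, FDR = 0.000362). Of 3 tested MCM paralogues outside licensing, Mcm8 and Mcm9 did not pass, and Mcmdc2, a gene of meiotic recombination, rose from 0.74 to 2.35 CPM (log2 fold change 1.65, FDR = 0.0282).

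In sorted spermatogonia none of these genes passed an FDR of 0.05, and the genes named are those with the smallest p in their list. Orc1, the ATPase of the origin recognition complex, had 86.5 and 91.2 CPM in WT as against 19.3 and 16.7 CPM in Prmt1-dKO cells (log2 fold change -2.30, SE 0.26, FDR = 0.0774), larger in size than that of any of the 10 licensing genes. Mcmbp, which binds MCM subunits, had a log2 fold change of -0.60, Topbp1 and Gins2 of origin firing both had -0.96, and Prim2 of primase had -0.84. Lig1, the ligase of Okazaki fragments, had -0.77, whereas Pcna, the clamp, had 0.34. The checkpoint kinase Atr had -1.23, Tipin, the partner of Timeless, -0.59, Rrm2 -1.25 and Dut 0.40.

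Among the regulators in sorted cells, E2f6 had 28.7 CPM in WT as against 105 CPM in Prmt1-dKO cells (log2 fold change 1.87), and Ccne2, cyclin E2, had 226 and 97.5 CPM (log2 fold change -1.21). Cdkn2d had -1.50 and Cdkn1c 1.65, while Mcmdc2 had 2.73 and Mcm8 -0.32. Pold4 was at 0 counts in both WT libraries, as against 27 and 12 counts with Prmt1-dKO. The median log2 fold changes in sorted cells were -0.22 for origin recognition and licensing control, -0.16 for origin firing, -0.34 for polymerases and primase, -0.31 for the clamp list, -0.33 for fork protection and 0.03 for nucleotide supply, beside -0.33 for the licensing genes.

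The genes whose pattern over the 10 libraries was most like the mean of the licensing genes, with log2 CPM centred within each assay, were Fads1 (Pearson r = 0.985), Gtf3c1 (0.968), Srebf2 (0.962), Drosha (0.959) and Gas2l1 (0.959). They were taken from 6841 genes with at least 20 CPM in both assays, whose median r was 0.0466 and whose 95th percentile was 0.73. The points share their libraries, genotypes and scaling, so the values describe these libraries only.

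CUT&Tag peaks were assigned to a gene when their summit lay within 3000 bp of a transcript start. A gene can have several annotated starts, so its peaks in different lists can lie at different places. The authors called peaks separately in each library, the numbers of reads behind them are unknown, and the lists held between 15361 and 55908 peaks, so that shares of all genes are given beside each count. H3K4me3, a mark of active promoters, had a peak at all 10 licensing genes in all 4 of its lists, 2 from P7 and 2 from P14. Of all 21951 protein-coding genes, 60.7% had one in both lists of P7 and 63.1% in both lists of P14, and of 11753 such genes with at least 1 TPM in WT sorted spermatogonia 91.4% and 93.5% did. Fold enrichments over the local background were 8.6 and 8.41 at P7 and 8.11 and 8.85 at P14 for Mcm3, which was highest of the 10 genes in both P7 lists, and 7.22 and 7.63 at P7 and 8.15 and 10.9 at P14 for Mcm6, which was highest in both P14 lists. They were lowest at Mcm2, with 3.04 to 3.82, and narrowest there, with widths of 302 to 434 bp. At Mcm2, Mcm3, Mcm5, Mcm6, Mcm7, Mcm10 and Cdc6 the summit lay 36 to 229 bp after the nearest start in each of the 4 lists.

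H3K27ac, a mark of active promoters and enhancers, was found at 7 and 9 of the genes in the 2 lists of P7 and at 10 and 10 in those of P14. In both lists of P7 there were 6 (Mcm3, Mcm4, Mcm5, Mcm6, Mcm7 and Cdc45), beside 31% of all protein-coding genes, and in both lists of P14 there were 10, beside 48.9%. Among expressed genes these shares were 52.7% and 80.4%.

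The arginine marks were thinner at P7. H4R3me2a, the product of Prmt1 on histone H4, had a peak at 1, 3 and 3 of the 10 genes in the 3 lists of P7. Only Mcm3 and Mcm6 had one in at least 2 lists, beside 15.3% of all protein-coding genes and 22.8% of expressed ones. At Mcm3 the single summits of the 3 lists lay apart, at chr1:20807728, chr1:20820088 and chr1:20804902. At Mcm6 the best summits of replicates 2 and 3 lay at chr1:128359547 and chr1:128362548, and replicate 3 held 2 summits. At P14 the counts of genes with a peak were 6, 6 and 7. There, 7 genes had a peak in at least 2 lists (all but Mcm2, Mcm5 and Cdc45), beside 49% of all and 69.9% of expressed genes. Every P14 list held more of the genes than every P7 list, and the exact two-sided permutation test over lists gave p = 0.1, the smallest that 3 against 3 lists allow (0.533 after adjustment over 8 comparisons of lists). The lists of P14 were longer, and when all 6 were reduced to the best peaks up to an equal length the counts were 1, 3 and 3 against 5, 5 and 7, beside 26.2% to 28% of expressed genes against 44.8% to 51.5%.

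The other arginine marks showed the same order of ages except H4R3me2s. H3R2me2a had peaks at 4 and 4 genes at P7 and at 9 and 10 at P14, H3R8me2a at 3 and 3 against 7 and 7, and H4R3me1 at 5 and 3 against 7 and 9. With 2 lists against 2, each of these exact permutation tests gave p = 0.333, the smallest such a design allows. At an equal list length the counts were 4 and 3 against 9 and 7 for H3R2me2a and 3 and 3 against 6 and 5 for H3R8me2a, beside at most 33% and 31.8% of expressed genes at P7 and at least 58.8% and 48.4% at P14. For H4R3me1 they were 5 and 3 against 5 and 8, beside 36.1% and 29% against 53.6% and 54.1% of expressed genes, so that the ages touched and the exact permutation p was 0.667. In both lists of a group, H3R2me2a marked 2 genes at P7 (Mcm3 and Mcm4) beside 11% of all protein-coding genes and 9 at P14 (all but Cdc6) beside 51.3%. H3R8me2a marked 1 gene (Mcm4) beside 9.71% at P7 and 6 beside 33% at P14, and H4R3me1 marked 2 (Mcm4 and Mcm6) beside 10.8% at P7 and 7 beside 29.9% at P14. The shares of all genes were thus higher at P14 as well. In the P7 lists the H3R2me2a summits of Mcm3 lay apart, at chr1:20807724 and chr1:20820246. So did the H4R3me1 summits of Mcm6, at chr1:128359585 and chr1:128357820. Among expressed genes the shares at P7 and P14 were 15.4% and 71.5% for H3R2me2a, 15.4% and 52.5% for H3R8me2a, and 16.3% and 46.5% for H4R3me1.

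H4R3me2s, the symmetric mark on the same residue, had peaks at 7 and 4 genes in the WT lists of P7 and at 8, 5 and 5 in those of P14 (exact permutation p = 0.7). At an equal list length the counts were 7 and 4 against 3, 5 and 4, so the difference between the ages turned from 0.5 to -1.5 genes per list, beside 33.9% to 47.4% of expressed genes at P7 and 46.8% to 48.2% at P14. In at least 2 lists it marked Mcm2 and Mcm4 at P7, where there were 2 lists, beside 17.8% of all protein-coding genes and 28.8% of expressed ones. The P7 summits at Mcm2 lay apart, at chr6:88892469 and chr6:88898557. At P14, where there were 3 lists, H4R3me2s marked 8 genes in at least 2 of them (all but Mcm2 and Mcm10), beside 34.2% and 54%. The peak names of these P14 lists carry a later day than their label. In the Prmt1-dKO lists of P7, H4R3me2s had peaks at 4 and 2 genes, of which Mcm4 alone was in both lists, beside 9.82% of all protein-coding genes and 14.7% of expressed ones. The difference between the genotypes was -2.5 genes per list (exact permutation p = 0.667 with a smallest possible p of 0.333), and the groups touched at 4 genes. The WT lists ran from 33.1% to 33.7% of all protein-coding genes and the Prmt1-dKO lists from 23.1% to 27.5%, so the share of all genes was lower in Prmt1-dKO as well. At the best peaks up to an equal length of 19981 peaks the counts were 7 and 4 in WT against 2 and 1 in Prmt1-dKO, beside 49.7% and 34.9% of expressed genes against 26.8% and 23.2%. The labels give tamoxifen for the Prmt1-dKO lists and C57BL/6J mice for the WT lists, so treatment, mouse line and genotype cannot be told apart here.

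**Figure D4:**
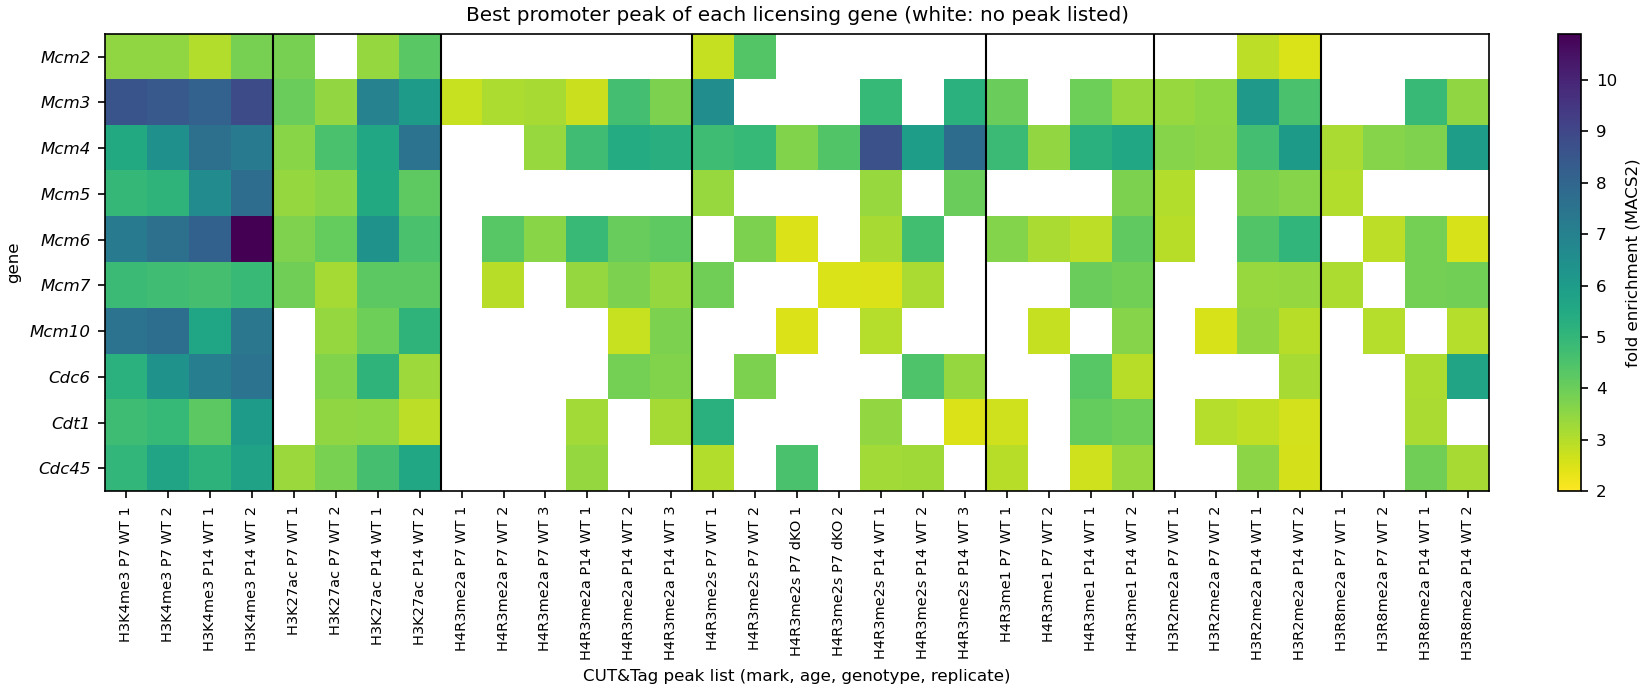
Fold enrichment of the best promoter peak of each gene in each of the 33 CUT&Tag lists, grouped by mark, with white for no listed peak. Mcm4 is filled in 31 of the 33 lists and Mcm2 in 11.

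The genes differed in how often they were marked. Mcm4 had a promoter peak in 31 of the 33 lists and in 23 of the 25 lists of arginine marks, missing only from 2 lists of H4R3me2a at P7. Among expressed protein-coding genes, 3.79% were marked in as many or more lists of arginine marks. Mcm6 (19 of 25) and Mcm3 (18 of 25) followed, then Mcm7 (15), Cdt1 and Cdc45 (12 each), Mcm10 (11), Cdc6 (10) and Mcm5 (8). Mcm2 was marked in 4 of these lists, and 12.2% of expressed genes were marked in as few or fewer. Genes with more annotated starts have wider windows. Mcm4 had 3 distinct starts, Mcm6, Cdc6, Cdt1 and Cdc45 had 4 each, and Mcm3 and Mcm5 had 5 each. Mcm2 had 7, and Mcm7 and Mcm10 had 10 each. The part of the starts in the counts was not tested.

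The highest fold enrichment of an arginine mark at any of the 10 genes was that of H4R3me2s at Mcm4 at P14. Its fold enrichment was 4.76 and 4.94 in the WT lists of P7, 3.7 and 4.4 in the Prmt1-dKO lists of P7 and 8.68, 5.96 and 7.77 in the WT lists of P14. The peak of P14 replicate 1 lay at chr16:15637097-15638068 (mm10), and in all 7 lists the summit was 233 to 383 bp before the start of Mcm4, between it and the start of Prkdc. A peak there belongs to both genes, and Prkdc was marked in the same number of lists (31 of 33). Fold enrichments are relative to the background of their own list and were not tested between lists.

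Peaks of the arginine marks were weaker calls than those of H3K4me3, at these genes and at others. The best peak had a q of at most 0.01 in 54 of the 132 cases in which a licensing gene had a peak of an arginine mark, 14 of them at Mcm4 and 9 at Mcm3, compared with 40 of 40 cases for H3K4me3 and 32 of 36 for H3K27ac. These are 40.9% of cases for the arginine marks and 88.9% for H3K27ac, beside 37% and 71% at expressed genes, where 43926 of 43947 cases passed for H3K4me3.

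**Figure D5:**
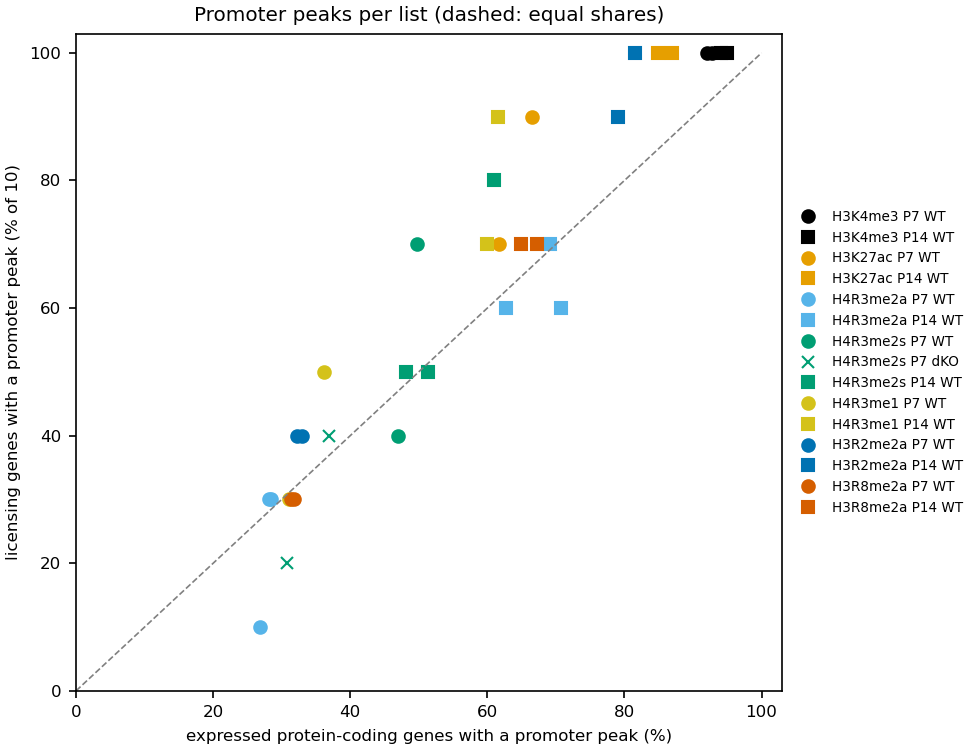
Share of the 10 licensing genes with a promoter peak (vertical, %) against the share of expressed protein-coding genes with one (horizontal, %), for each of the 33 lists; the dashed line marks equal shares. The licensing genes lie above the line in 24 of 33 lists, and most points are close to it.

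The E2F-type motifs lay under H3K4me3 peaks. The best H3K4me3 peak covered the motifs of Mcm3, Mcm7, Cdc6 and Cdt1 in all 4 lists and those of Mcm5 and Mcm6 in 3 of 4. The best H4R3me2a peak covered the motifs of Mcm3 in 2 lists and those of Mcm6, Cdc6 and Cdt1 in 1 list each, and at Mcm7 it covered 1 of the 2 motifs in 1 list.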

How the data were processed

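RNA was measured in 10 libraries and histone marks in 33 CUT&Tag libraries. For RNA, the authors trimmed reads with fastp 0.23.2, mapped them to mm10 with STAR and deposited RSEM expected counts per gene, which are not normalized, beside TPM scaled within each library. For CUT&Tag, the authors called peaks with MACS2 2.1.0 in each library, and the deposited lists give fold enrichment (a ratio to local background), −log10 p and −log10 q. The aligner and the control of the peaks, and the annotation given to RSEM, were not stated in the sources used here.

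Expected counts were rounded to whole numbers. Genes were kept by filterByExpr with minimums of 10 per library and 15 over libraries. After TMM scaling, the genotypes were compared within each assay by edgeR 4.0.16 (quasi-likelihood test, R 4.3.3), with Benjamini-Hochberg adjustment (FDR) over all genes. Called genes changed by 2-fold or more at an FDR below 0.05. DESeq2 1.42.0, limma-voom (limma 3.58.1), RLE scaling, no filter, a replicate block and leaving out each library were alternatives. The fit was tested on simulated data. Peaks were assigned by summit to GENCODE vM21 transcript starts, and lists were compared by two-sided exact permutation tests. Python 3.11.15 was used for peaks, sequences and figures.

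The genes, the gene lists and the tests were chosen with earlier results of these data known. Genes named outside the 10 were Prmt1, in each list up to 3 called genes with the largest change or else the 2 with the smallest p, neighbours within 1000 bp on the other strand, and the 5 genes with the most similar pattern. Atrip, Gins1, Mcm8, Mcm9 and markers were named after their values were seen. Values that belong to FPKM were not used.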

Additional observations from a re-analysis of the deposited data

Results flagged for a closer look

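Mcm4, Mcm7 and Cdt1 were marked for a closer look because the genotype difference of each gene differed between the assays in the joint fit. The difference, sorted spermatogonia minus whole testes on the log2 scale, was 1.22 for Mcm4, 0.6 for Mcm7 and 0.86 for Cdt1. This term passed for 19% of the 19608 genes fitted. With limma-voom and sample quality weights it passed for none of these 3 genes, and over 14 alternatives it passed in 13 for Mcm4, 8 for Cdt1 and 4 for Mcm7. Every Prmt1-dKO library was below every WT library in testes, and every one was above in sorted cells in TMM-scaled CPM. In TPM the genotypes overlapped in sorted cells for all 3 genes. No group held the 4 samples that a test for single aberrant libraries needs.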

How the results depend on the processing

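In testes, the 10 licensing genes kept negative values under all 11 alternatives, and 0 were called at 2-fold except without Prmt1-dKO replicate 1, so leaving out one library gave 0 to 1. Without the fold threshold 8 were lower. That count, chosen after seeing the data, was 8 with RLE, no filter, DESeq2 (1735 of 16554 genes in all) and limma-voom, and between 4 (without WT replicate 1) and 9 (without Prmt1-dKO replicate 2, where 2578 of 16971 genes were lower in all) when one library was left out, with 5 without WT replicate 2. Mcm3, Mcm4, Mcm10 and Cdc6 passed under all 11 alternatives. The numbers do not pair the libraries, since deviations of same-numbered libraries correlated between -0.221 and 0.0825 in testes and at 0.0177 in sorted cells. With the replicate block, 0 were called at 2-fold, 6 of 10 were lower in testes (764 of 16554 genes in all) and 0 in sorted cells, and for the difference between assays 1 of 10 passed (2295 of 19608 genes in all).

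In sorted cells, 0 of the 10 were called at 2-fold with RLE, no filter, DESeq2, limma-voom and the replicate block. Of all 16443 genes, DESeq2 called 977 lower and 2521 higher at 2-fold, and limma-voom 150 lower and 1546 higher. With RLE, no filter and the replicate block, 0 of all genes were called. Without a fold threshold, 4 of the 10 were lower with DESeq2. When one library was left out, no value of the 10 reached 2-fold, the largest in size being -0.92 for Mcm10 without WT replicate 1. Cdc45 changed sign to 0.02 without WT replicate 1 and was -0.36 without WT replicate 2. The difference between assays passed for 0 genes with limma-voom, and for 1 to 4 genes when one library was left out. Mcm4 passed in 13 of 14 alternatives, Cdt1 in 8 and Mcm7 in 4. The causes were not tested. Leaving out a sorted library leaves 1 in its arm, which is assumed to vary like the other genotype.

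For promoter peaks, q of at most 0.01 changed the mean number of genes per list to 6 for H3K27ac at P7; to 0.333 (P7) and 3.33 (P14) for H4R3me2a; to 2 (WT, P7), 2 (WT, P14) and 0 (Prmt1-dKO) for H4R3me2s; to 1 and 4.5 for H4R3me1; to 0 and 8 for H3R2me2a; and to 0 and 3 for H3R8me2a. Among expressed genes, the shares per list at that q were 26.1% and 34.6% for H3K27ac at P7. At P7 and P14 they were 2.76% to 4.28% and 27.6% to 39.4% for H4R3me2a. They were 3.34% to 6.47% and 28% to 31.8% for H4R3me1, and 2.65% to 4.58% and 54.7% to 59.8% for H3R2me2a. For H3R8me2a they were 5.02% to 5.43% and 27.9% to 39.2%. H4R3me2s had 6.57% to 12.7% and 11.8% to 21.4% in WT, and 1.24% to 2.38% in Prmt1-dKO. With an equal list length the mean number was 5.67 for H4R3me2a at P14, and 4 and 1.5 for H4R3me2s at P14 and in Prmt1-dKO. It was 6.5 for H4R3me1 at P14, 3.5 and 8 for H3R2me2a, and 5.5 for H3R8me2a at P14. A summit within 1000 bp gave 3 for H3R2me2a at P7, and 2.5 and 6.5 for H3R8me2a. Starts of protein-coding transcripts gave 5.33 for H4R3me2a at P14, 2.5 for H3R2me2a at P7, and 2.5 and 6.5 for H3R8me2a. The shares of expressed genes within 1000 bp and for protein-coding starts were not computed. The H4R3me2s difference between genotypes was between -4 and -1 when one list was left out. With the replicate block it is -2.5 by construction, since 2 pairs of lists give the difference of the means. The unknown depth of the peak lists and the small number of libraries limit these values.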
